A study of Mus musculus with 6 samples.

Results

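Ly49 receptor genes were followed in the transcripts of single invariant natural killer T (iNKT) cells of the mouse, T cells with a semi-invariant receptor for lipids held on CD1d. The members were chosen by gene symbol as Klra1, Klra3, Klra5, Klra6, Klra7, Klra8 and Klra9, and all 7 were found among the 27998 genes of the count tables. Cells came from liver, spleen and lymph node of wild-type (WT) C57BL/6 mice aged 5 weeks, with 2 libraries an organ and 6 libraries in all, and no group was treated or carried a targeted allele. Cells bearing CD8 or B220 were first removed, and cells stained by a TCR-β antibody and a CD1d tetramer were then sorted and run through droplet-based 3′ end sequencing, so each value is a count of unique molecular identifiers (UMIs, single captured transcripts) of a gene in a cell. How many mice went into a library is not given in the sources used here, so the spread between 2 libraries may include technical as well as biological differences. The labels call the captured molecule nuclear RNA, although the protocol describes sorted cells and no isolation of nuclei.

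After the filter on cells, 16532 of 16587 barcodes remained, with 2638 to 2861 cells a library. The deposited tables held 4768016 to 11086603 UMIs a library, and the median UMI count of a cell was 2880 to 3592 in liver, 1554 to 1724 in spleen and 1470 to 1730.5 in lymph node. Each pair of libraries shared 6 to 20 barcodes. The lymph node libraries stood apart in 1 respect: they held no Xist UMI but 1365 and 1582 UMIs of Y-linked genes, whereas the other 4 libraries held 5401 to 10404 Xist UMIs and no Y-linked UMI. Lymph node and sex therefore cannot be told apart in any comparison below.

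Ly49 receptors are lectin-like proteins of the natural killer (NK) complex that read MHC class I molecules on other cells. Most carry an inhibitory motif that recruits phosphatases, while an activating member such as Ly49H signals through the adaptor DAP12, the product of Tyrobp. Each NK cell switches on only some of the genes of the family, so that single cells carry different combinations, and some T cells with an NK-like program use the same receptors. Klra1 encodes Ly49A, Klra3 Ly49C, Klra5 Ly49E, Klra6 Ly49F, Klra7 Ly49G and Klra9 Ly49I, which are inhibitory, and Klra8 encodes the activating Ly49H.

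The members lie on the minus strand of chromosome 6, between 129898996 and 130386874 (GRCm38, GENCODE vM21), in the order Klra5, Klra6, Klra8, Klra9, Klra7, Klra3 and Klra1, with Klra4 between Klra6 and Klra8 and Klra10 between Klra7 and Klra3. Klra1 spans chr6:130363917-130386874 and Klra3 spans chr6:130323289-130337574. Promoters are shown for 5 members, chosen because they run from near twins (Klra3 and Klra9) to a gene with almost no likeness to them (Klra1). Each line gives the 250 bases before a RefSeq start site (GRCm38.p6, minus strand, 5′ to 3′). Capitals mark AAGCAATTTCCTC, a stretch shared by 5 members that was picked after the sequences had been compared.
Klra3 promoter, chr6:130337627-130337876: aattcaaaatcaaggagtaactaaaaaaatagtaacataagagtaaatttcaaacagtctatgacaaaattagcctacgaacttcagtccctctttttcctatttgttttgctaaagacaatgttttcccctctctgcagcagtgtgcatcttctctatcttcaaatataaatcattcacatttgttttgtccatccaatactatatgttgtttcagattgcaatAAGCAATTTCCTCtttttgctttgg
Klra9 promoter, chr6:130193113-130193362: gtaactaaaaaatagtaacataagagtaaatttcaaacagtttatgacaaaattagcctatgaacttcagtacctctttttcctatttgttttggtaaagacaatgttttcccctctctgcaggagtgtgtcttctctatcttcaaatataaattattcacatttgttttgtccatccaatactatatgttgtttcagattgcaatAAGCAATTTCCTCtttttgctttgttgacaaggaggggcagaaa
Klra5 promoter, chr6:129913225-129913474: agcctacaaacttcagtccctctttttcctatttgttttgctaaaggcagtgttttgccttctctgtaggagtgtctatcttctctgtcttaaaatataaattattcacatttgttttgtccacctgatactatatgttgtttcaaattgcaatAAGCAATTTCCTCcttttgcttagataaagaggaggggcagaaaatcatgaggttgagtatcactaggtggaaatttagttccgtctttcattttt
Klra7 promoter, chr6:130233323-130233572: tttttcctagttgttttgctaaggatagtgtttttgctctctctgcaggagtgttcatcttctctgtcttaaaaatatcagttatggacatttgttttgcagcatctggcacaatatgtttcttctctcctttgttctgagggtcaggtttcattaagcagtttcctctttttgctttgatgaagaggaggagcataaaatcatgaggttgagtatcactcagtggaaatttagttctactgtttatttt
Klra1 promoter, chr6:130386875-130387124: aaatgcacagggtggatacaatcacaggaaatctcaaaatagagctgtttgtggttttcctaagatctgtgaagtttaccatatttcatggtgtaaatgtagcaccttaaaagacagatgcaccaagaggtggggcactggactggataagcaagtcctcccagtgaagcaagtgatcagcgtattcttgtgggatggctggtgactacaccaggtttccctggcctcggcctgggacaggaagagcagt
The capital stretch was present in the windows of Klra3, Klra5, Klra6, Klra8 and Klra9, in 6 of 9 member windows (Klra7 and Klra8 have 2 start sites each), and ended at varying distances before the start: 12 bases in Klra3, 31 in Klra9, 83 in Klra5, 112 in Klra6, and 73 and 136 in the windows of Klra8. Searched on both strands, it occurred in 10 of 32851 windows of the same length (0.0304%), and the genes outside the members were Klra4, Klra17, Kcnf1 and Gm52487. The windows of Klra3 and Klra9 were identical at 96.1% of 233 aligned bases, those of Klra5 and Klra6 at 92.3% of 221, while the best alignment of Klra1 with Klra3 covered 15 bases. Further short motifs were searched as well, on both strands: the Runx motif TGTGGT was in 14% of all windows and in that of Klra1 among the members, the Tcf/Lef motif CTTTGAT was in 3.21% of all windows and in those of Klra6 and Klra7, and the T-box motif TCACACC was in 3.33% of all windows and in none of the members. A match is a description of letters only.

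Sequence likeness also bears on counting. Over whole transcripts (1104 to 1668 bases), Klra3 and Klra9 were identical at 95.6% of 1246 aligned bases and at 98.7% over their last 300 bases, Klra5 and Klra6 at 90.7%, and Klra1 and Klra7 at 77.6%. Of the stretches of 110 bases (the read length) within the last 500 bases, 9.0% in Klra9, 3.3% in Klra7 and 3.1% in Klra3 also occurred in another gene (Klra11-ps, Klra13-ps and Klra10), and none did in Klra1, Klra5, Klra6 or Klra8. In these transcripts no stretch of that length was shared by a pair of members. Reads from such stretches match more than 1 gene, and whether UMIs of Klra3, Klra7 and Klra9 were lost in this way was not tested.

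All 7 genes were detected, with 4651 UMIs in all. Klra1 held 48.1% of them (2237 UMIs), Klra3 18.7% (869), Klra9 14.1% (658), Klra7 9.85% (458), Klra5 6.04% (281), Klra6 2.37% (110) and Klra8 0.817% (38). These shares compare captured 3′ ends, 1 for each transcript, and were not divided by gene length. Klra1 led in every library. Summed over the 7 genes, the level, in UMIs per 1000000 UMIs (CPM), was 159 and 207 CPM in liver, 207 and 212 CPM in spleen, and 76.0 and 134 CPM in lymph node, so that both lymph node libraries lay below the other 4.

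**Figure D1:**
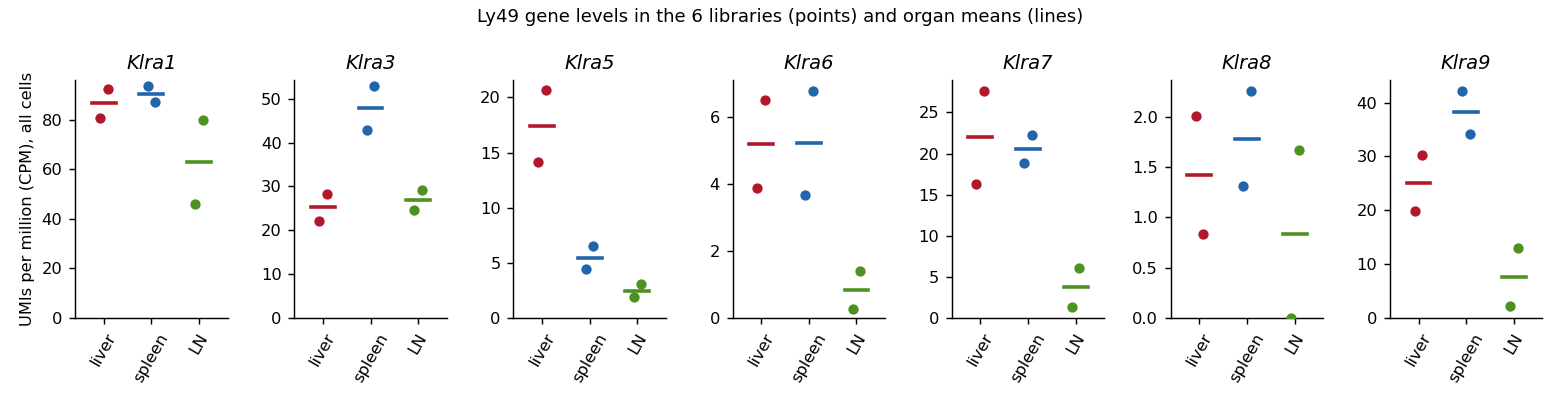
Level of each Ly49 gene in UMIs per 1000000 UMIs of all cells (CPM, linear axis with its own scale for each gene) in each library (points), with the mean of the 2 libraries of an organ (lines). Klra5 was high in liver alone, from 14.2 to 20.7 CPM, Klra3 was high in spleen, from 42.8 to 52.8 CPM, and the 2 lymph node points of Klra7 and Klra9 lie below all others.

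Organs were compared with edgeR's quasi-likelihood test on UMIs summed over all cells of a library, so a difference mixes the share of each kind of cell with the level per cell, and these cannot be told apart in the sums. Of 10170 genes tested, 2618 (25.7%) passed an adjusted p of 0.05 for liver against spleen, 3828 (37.6%) for liver against lymph node, and 1865 (18.3%) for spleen against lymph node. Among the 7 members, 6 passed the filter on low counts. Klra5 and Klra3 differed between liver and spleen (2 of 6), Klra5, Klra6 and Klra7 between liver and lymph node (3 of 6), and Klra3, Klra6 and Klra7 between spleen and lymph node (3 of 6). The values of the organ pairs did not overlap for 3, 5 and 6 of the 6 members, beside 63.3%, 70.2% and 57.5% of all genes tested, so separation of 2 points from 2 points was common in these libraries.

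Klra5, the gene of Ly49E, was highest in liver. Its UMIs numbered 99 and 124 in liver (14.2 and 20.7 CPM), 17 and 23 in spleen (4.46 and 6.49 CPM) and 7 and 11 in lymph node (1.91 and 3.06 CPM). The 3 organs did not overlap, in the order liver, spleen, lymph node. Its mean level was 17.4 ± 4.6 CPM in liver, 5.48 ± 1.4 CPM in spleen and 2.48 ± 0.82 CPM in lymph node (SD, n = 2). On the log2 scale liver was higher by 1.59 than spleen (SE 0.30, edgeR adjusted p = 0.000175) and by 2.74 than lymph node (SE 0.35, adjusted p = 1.2e-07), whereas spleen and lymph node did not differ beyond the test (1.15, adjusted p = 0.065), other than without spleen replicate 1 (1.42, adjusted p = 0.0434) and with a replicate block (1.16, adjusted p = 0.0357).

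Klra3, the gene of Ly49C, was highest in spleen. It stood at 42.8 and 52.8 CPM in spleen, 22.1 and 28.3 CPM in liver and 24.5 and 29.2 CPM in lymph node. Both spleen libraries lay above the other 4, and liver and lymph node overlapped. The log2 fold change of Klra3 was -1.01 (SE 0.17, edgeR adjusted p = 5.3e-05) for liver against spleen and 0.85 (SE 0.18, adjusted p = 0.00079) for spleen against lymph node. It held the same sign and call in all 6 fits that left out 1 library.

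Klra7 and Klra6, the genes of Ly49G and Ly49F, were low in lymph node. Klra7 stood at 16.3 and 27.7 CPM in liver, 18.9 and 22.3 CPM in spleen, and 1.36 and 6.12 CPM in lymph node. Klra6, at 3.87 and 6.50 CPM in liver and 3.67 and 6.78 CPM in spleen, was at 0.273 and 1.39 CPM in lymph node, which rests on 1 and 5 UMIs. Liver and spleen overlapped for both genes and neither overlapped with lymph node. Against lymph node, Klra7 was higher by 2.49 on the log2 scale in liver (SE 0.49, edgeR adjusted p = 0.0037) and by 2.48 in spleen (SE 0.52, adjusted p = 0.0099), and Klra6 was higher by 2.54 (SE 0.59, adjusted p = 0.0011) and 2.63 (SE 0.63, adjusted p = 0.0027). Without lymph node replicate 2 the liver values rose to 3.90 and 4.04, and without lymph node replicate 1 they were 1.78 and 1.81 (Klra7, Klra6), all of them called. For spleen against lymph node the calls were lost when 1 library was left out: Klra7 without spleen replicate 1 (2.62, adjusted p = 0.0522) or 2 (2.33, adjusted p = 0.0813), and Klra6 without spleen replicate 2 (2.11, adjusted p = 0.0568) or lymph node replicate 1 (1.91, adjusted p = 0.0757).

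Klra9, the gene of Ly49I, differed widely between the 2 lymph node libraries. It stood at 19.9 and 30.3 CPM in liver, 42.3 and 34.2 CPM in spleen, and 2.18 and 13.1 CPM in lymph node. The 3 organs did not overlap, yet no contrast of Klra9 passed the test as designed. Its log2 fold change was 1.66 (SE 0.73, edgeR adjusted p = 0.174) for liver and 2.35 (SE 0.72, adjusted p = 0.135) for spleen against lymph node. With lymph node replicate 1 left out the values were 0.88 and 1.57, and with lymph node replicate 2 left out 3.43 and 4.12, each of them past the threshold, and liver against spleen (-0.69, adjusted p = 0.461) also passed it in both cases. Spleen against lymph node was also called with all genes kept (2.35, adjusted p = 0.0452) and, as an added setting, without Gzma-like cells (1.42, adjusted p = 0.0306).

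Klra1, the gene of Ly49A and the most abundant member, was called in no organ contrast of the fit as designed. It stood at 80.5 and 92.5 CPM in liver, 93.7 and 87.0 CPM in spleen, and 45.8 and 79.9 CPM in lymph node. Liver and spleen overlapped, and lymph node replicate 2 came within 1 CPM of the lower liver library. Its log2 fold change was -0.14 for liver against spleen (adjusted p = 0.618), with 2 larger values against lymph node (0.40, adjusted p = 0.121, for liver and 0.55, adjusted p = 0.0784, for spleen against lymph node, by edgeR). Both passed in 3 alternatives, among them without lymph node replicate 2 (0.84 and 0.98) and with a replicate block. Without Gzma-like cells, an added setting, both turned negative.

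Klra8, the gene of the activating receptor Ly49H, was close to the limit of detection. Liver held 14 and 5 of its UMIs, spleen 5 and 8, and lymph node 0 and 6, from 18 cells in all, so it was not tested between organs. The count of 0 in lymph node replicate 1 allows up to 3 UMIs. A single liver cell held 8 of the 38 UMIs.

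Other genes of the family and of the NK complex were read from a fixed list. Of the other Ly49 genes on that list, Klra4 had 3 UMIs, Klra2 had 2, Klra10 had 6 and Klra17 had 0 in all cells, and none was tested. Of 17 other NK receptor genes 14 were tested: 7 were higher and 0 lower in liver than in spleen, 11 higher and 1 lower in liver than in lymph node, and 9 higher and 2 lower in spleen than in lymph node, beside 12.7%, 18% and 7.99% of all genes tested that were higher and 13%, 19.6% and 10.3% that were lower. Klre1, Klrk1, Klrc1 and Klrc2, which code for lectin-like receptors from the neighbouring part of the NK complex, were among the higher genes in all 3 contrasts. The median log2 fold change of the list was 0.63, 1.87 and 1.43, beside 0.02, 0.01 and 0.00 for all genes tested. Of the iNKT17-like markers, which mark a kind of iNKT cell that lacks NK receptors, all 12 tested were lower in liver and in spleen than in lymph node. The part of such cells in the lower Ly49 sums of lymph node was not tested in these sums.

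Cells were grouped into classes by clustering in which no Klra gene took part, and each class was named by its markers. In liver and spleen most Ly49 genes, other than Klra3, were concentrated in 1 cluster. This cluster was led by Gzma, Fcer1g, Klre1, Ncr1, Klrc2, Tyrobp and Klrc1 and is called Gzma-like here after its granzyme A gene. It held 1277 cells, 7.72% of all cells and 8.67% of all UMIs, but 43.0% of the Ly49 UMIs. By library it held 52.3% and 54.2% of the Ly49 UMIs in liver, 49.9% and 38.1% in spleen, but 5.38% and 11.2% in lymph node. In lymph node as a whole it held 9.06%, while iNKT1-like cells held 35.7%, unnamed cells 20.9% and iNKT2-like cells 15.5%. Pooled over the libraries, its share was 71.1% for Klra8, 69.0% for Klra5, 61.9% for Klra9, 59.4% for Klra7, 56.4% for Klra6, 37.7% for Klra1 and 22.7% for Klra3. This order mixes organs and differed between them. Klra5 (74.0%) had the highest share in liver, Klra8 (100%, of only 13 UMIs) in spleen and Klra7 (29.6%, of only 27 UMIs) in lymph node. The Klra7 share was 0% of 5 UMIs in lymph node replicate 1 and 36.4% of 22 UMIs in replicate 2. In spleen Klra9 (62.8%) stood just above Klra5 (62.5%). Klra3 had the lowest share of the 7 in each of the 4 liver and spleen libraries, whereas in each lymph node library other members were at 0%, below Klra3 at 2.22% and 7.62%. In spleen, iNKT1-like cells held more of the Klra3 UMIs (44.8% and 58.8%) than Gzma-like cells did (23.9% and 19.8%). In liver, iNKT1-like cells held 39.0% and 28.8% of them, beside 33.1% and 35.3% in Gzma-like cells. Liver gave 436 and 476 of its cells, spleen 169 and 144, and lymph node 24 and 28.

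**Figure D2:**
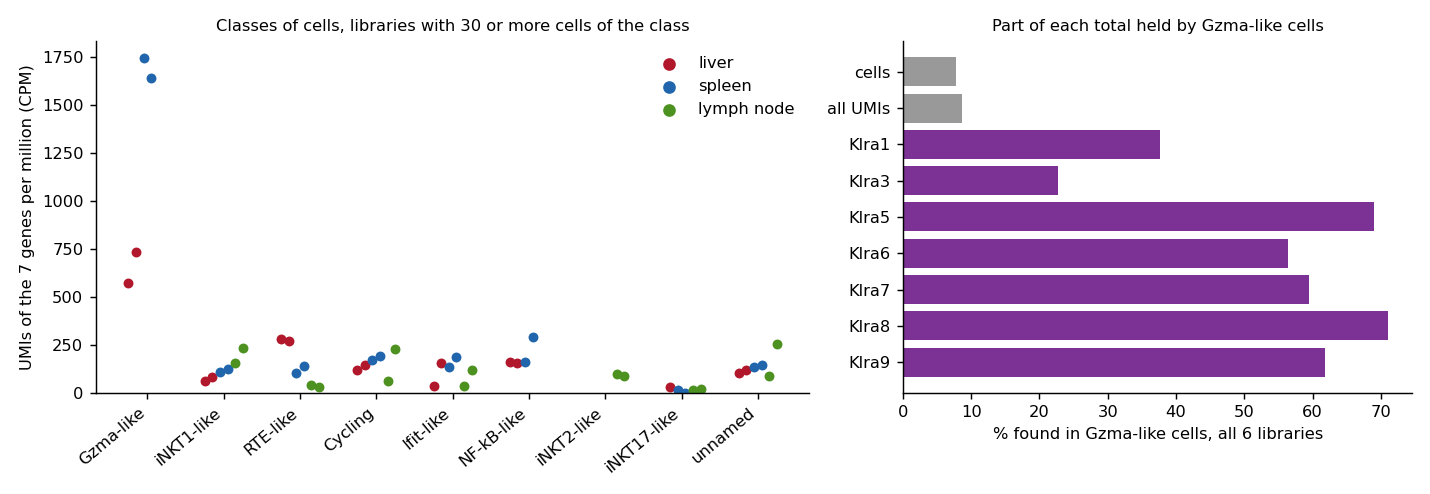
Left, summed level of the 7 Ly49 genes in UMIs per 1000000 UMIs (CPM) in each class and library with at least 30 cells (points, coloured by organ); right, part of all cells, of all UMIs and of the UMIs of each Ly49 gene that fell into Gzma-like cells (percent, all 6 libraries). Gzma-like cells hold 22.7% to 71.1% of the UMIs of a gene from 7.72% of the cells.

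Within each organ, the summed Ly49 level was highest in Gzma-like cells, at 647, 1701 and 1216 CPM in liver, spleen and lymph node (both libraries of an organ pooled). In iNKT1-like cells (the interferon-γ type, 7861 cells) it was 69.4, 116 and 194 CPM. In iNKT17-like cells (the interleukin-17 type, 1999 cells) it was 87.4 CPM in liver, from 12 UMIs of 49 cells, 6.88 CPM in spleen and 16.3 CPM in lymph node. The order of the other classes differed between organs: cells like recent thymic emigrants (RTE-like) stood above NF-kB-like cells in liver (274 and 156 CPM) and below them in spleen (119 and 213 CPM). iNKT2-like cells, nearly all of them from lymph node, were at 91.7 CPM there. In iNKT17-like cells, which should lack these receptors, Klra5, Klra6 and Klra8 had no UMI, and 56 UMIs of the other 4 members were found; these served as the background level. In the lymph node libraries that class made 863 and 1004 cells with a summed level of 14.8 and 17.6 CPM. In liver replicate 1, 19 iNKT17-like cells held 10 Ly49 UMIs (145 CPM), so the background differed between libraries where cells were few.

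In RTE-like cells, which carry Ccr7 and S1pr1 as recent thymic emigrants do, the summed Ly49 level was 282 and 269 CPM in liver (41 and 64 cells), 100 and 141 CPM in spleen, and 41.5 and 31.2 CPM in lymph node. The organs did not overlap there, and 1 cluster of the class was mostly of spleen cells and the other mostly of lymph node cells. The liver values rest on 30 and 43 UMIs and the lymph node values on 6 and 3.

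Within the Gzma-like cluster, an analysis added after the data had been seen, the spleen cells held more Ly49 RNA than the liver cells. The summed level was 570 and 733 CPM in liver, 1746 and 1642 CPM in spleen, and 552 and 1826 CPM in lymph node, where it rests on 15 and 54 UMIs. Klra1 stood at 254 and 295 CPM in liver and at 767 and 626 CPM in spleen, and Klra9 at 90.4 and 135 CPM in liver and at 496 and 373 CPM in spleen. Of 3855 genes tested in this cluster with edgeR, 385 (9.99%) differed between liver and spleen, and 4 of the 5 members tested were among them, all lower in liver (as were 4.8% of all genes tested): Klra1 (log2 fold change -1.35, adjusted p = 5.8e-13), Klra3 (-1.72, adjusted p = 1.6e-08), Klra7 (-1.19, adjusted p = 9.5e-05) and Klra9 (-1.96, adjusted p = 1.5e-06). Klra5 was the exception, at 69.8 and 102 CPM in liver and 48.8 and 80.4 CPM in spleen (0.45, adjusted p = 0.45). Against lymph node, where 99 (2.57%) and 9 (0.233%) of the genes were called, no member passed.

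Liver thus had more Gzma-like cells but a lower Ly49 level (CPM) in them than spleen. With Gzma-like cells left out of the sums over all cells, also an added setting, Klra3 remained lower in liver than in spleen (-1.11, edgeR adjusted p = 8.7e-05) and Klra7 higher in liver than in lymph node (1.74, adjusted p = 0.0047). The liver excess of Klra5 over spleen then missed the threshold (1.19, adjusted p = 0.0673), as did Klra6 against lymph node in liver (1.73, adjusted p = 0.128) and spleen (1.71, adjusted p = 0.241).

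In iNKT1-like cells the levels of Klra1 and Klra3 were lowest in liver. Klra1 stood at 27.1 and 40.4 CPM in liver, 50.8 and 40.5 CPM in spleen, and 89.6 and 140 CPM in lymph node. Klra3 stood at 16.4 and 18.5 CPM in liver, 33.4 and 53.0 CPM in spleen, and 49.8 and 47.2 CPM in lymph node. The liver values did not overlap with the others, although the nearest liver and spleen libraries of Klra1 differed by less than 1 CPM. Of 9185 genes tested with edgeR, 22.5% were called for liver against spleen (11.3% lower in liver), 20.2% for liver against lymph node (11.3% lower in liver) and 8.69% for spleen against lymph node (5.55% lower in spleen). Of the 5 members tested, Klra3 (log2 fold change -1.40, adjusted p = 4.3e-08), Klra9 (-1.15, adjusted p = 0.0044) and Klra1 (-0.55, adjusted p = 0.028) were lower in liver than in spleen, and Klra1 (-1.89, adjusted p = 1.1e-13), Klra3 (-1.58, adjusted p = 4.6e-07) and Klra9 (-1.13, adjusted p = 0.048) were lower in liver than in lymph node. The call of Klra1 for liver against lymph node was lost with a finer clustering (-0.74, adjusted p = 0.421) and with a marker gate (-0.63, adjusted p = 0.376). The call of Klra9 against lymph node was lost or turned in 12 of 14 alternatives (adjusted p up to 0.829, without lymph node replicate 2, where the value was -0.33). That of Klra1 for liver against spleen was lost in 6 of 14, among them without liver replicate 1 (-0.23, adjusted p = 0.563), spleen replicate 1 (-0.39, adjusted p = 0.314) and spleen replicate 2 (-0.67, adjusted p = 0.0579). That of Klra9 for liver against spleen was lost in 4 of 14, namely without liver replicate 1 or spleen replicate 2, with DESeq2 (no adjusted p) and at equal depth. Spleen and lymph node differed in Klra1 (-1.34, edgeR adjusted p = 8.4e-08), a call that was lost with the marker gate and a value that turned with the finer clustering. Liver against spleen was also tested for a difference between Gzma-like and iNKT1-like cells, which 1.96% of 8861 genes showed. Among the members Klra1 alone passed, with a liver value lower by a further 0.84 in Gzma-like cells (difference -0.84, edgeR adjusted p = 0.0005).

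The iNKT1-like class was made of different clusters in the 3 organs, 1 mostly of spleen cells, 1 mostly of liver cells and 1 mostly of lymph node cells, and the last was led by the immediate early genes Dusp1, Nr4a1 and Junb. The lymph node values depended on how the class was drawn. With a finer clustering, Klra3 was at 0.014 for liver against lymph node (adjusted p = 0.995) and Klra1 at 0.13 for spleen against lymph node (adjusted p = 0.951), and with a marker gate in place of clusters Klra9 was at 0.66 for liver against lymph node (adjusted p = 0.468), all by edgeR. The lower level of Klra3 in liver than in spleen kept its sign and call under each setting tried.

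Shares of cells with a UMI depend on depth, so each cell was thinned to 1000 UMIs and shallower cells were left out. At this depth a UMI of any member was found in 6.57% (95% exact Clopper-Pearson interval 5.68% to 7.55%) and 8.38% (7.39% to 9.46%) of liver cells, 7.23% (6.27% to 8.30%) and 8.09% (7.04% to 9.23%) of spleen cells, and 3.46% (2.76% to 4.27%) and 5.30% (4.43% to 6.28%) of lymph node cells. The shares of lymph node were the lowest, although the interval of lymph node replicate 2 overlaps with that of liver replicate 1 and just with that of spleen replicate 1. These intervals cover counting error only. Unthinned, the mean shares were 14.7%, 11.1% and 6.16% (liver, spleen, lymph node). By an exact permutation of the 6 libraries into 3 pairs the share of any member gave p = 0.2, and among the members the smallest was p = 0.0667 (Klra5), the lowest this design allows, with adjusted values over the 7 members of 0.311 or more.

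By class, a UMI of any member at 1000 UMIs was found in 22.5% and 27.5% of Gzma-like cells of liver, 40.6% and 35.6% of those of spleen, and 20.0% and 56.5% of those of lymph node (20 and 23 cells). Among iNKT1-like cells liver had 2.36% and 3.77%, spleen 5.32% and 6.00%, and lymph node 5.94% and 8.29%. In iNKT17-like cells of lymph node they were 0.857% and 0.95%, with median depths of 1981 and 1700 UMIs before thinning beside 1391 and 1190.5 in iNKT1-like cells. The iNKT1-like shares of lymph node lay above that background in both libraries. In liver the iNKT17-like shares were 5.26% and 3.33%, from 1 cell each of 19 and 30, so the iNKT1-like shares of liver were not shown to lie above background. In spleen none of 50 and 33 such cells had a UMI, where 3 cells, the number a count of 0 allows, would be shares of 6% and 9.09% (upper limits of the exact intervals 7.11% and 10.6%).

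Ly49 RNA was unevenly spread over cells. Without thinning, Klra1 had a UMI in 897 cells (5.43%), although 12.7% of cells would have had one if its UMIs had been spread evenly over cells, and 45.4% of the positive cells had 2 or more UMIs, up to 19 in a single cell. Klra3 was found in 533 cells (3.22%, beside 5.12% if spread evenly) with a mean of 1.63 UMIs in positive cells, lower than the 2.49 of Klra1. Klra9 was found in 332 cells, Klra7 in 225, Klra5 in 150 and Klra6 in 76, with 1.98, 2.04, 1.87 and 1.45 UMIs a positive cell.

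Most positive cells showed a single member. At 1000 UMIs a cell, 2 or more members were found in 14.1% and 15.9% of the positive cells of liver, 23% and 18.4% of those of spleen, and 7.32% and 13.6% of those of lymph node, and no cell showed more than 4. In Gzma-like cells of spleen these shares reached 44.8% and 47.9%, beside 21.4% and 22.9% in Gzma-like cells of liver. Droplet assays capture only part of the transcripts of a cell, so a cell with 1 detected member may carry others.

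**Figure D3:**
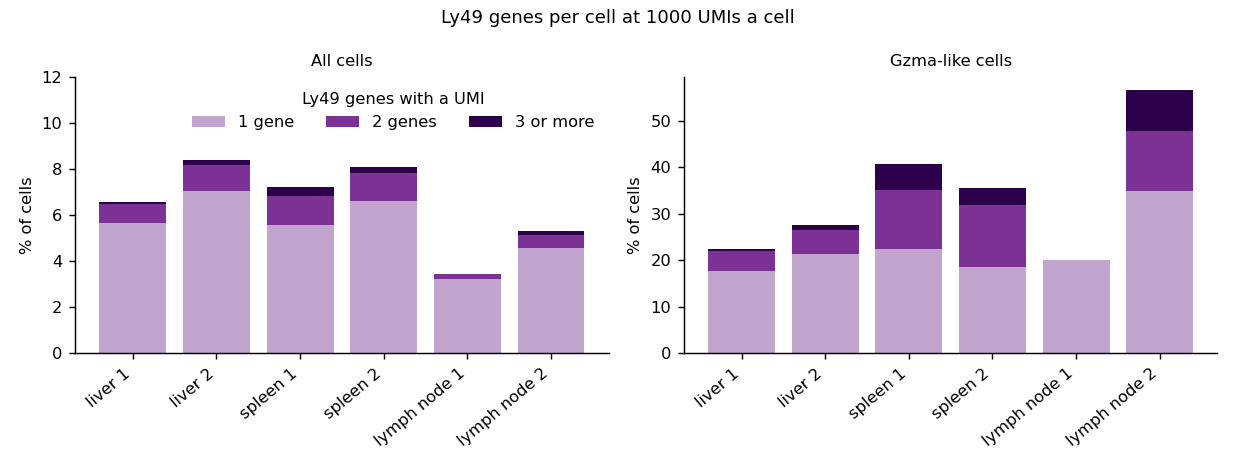
Share of cells (percent) with UMIs of 1, 2 or at least 3 Ly49 genes in each library, all cells (left) and Gzma-like cells (right, another scale), each cell thinned to 1000 UMIs. Both lymph node bars on the left are below the others, and the lymph node bars on the right rest on 20 and 23 cells.

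Members were found together in a cell more often than their shares in a library would give if they fell independently. Over all pairs, 241 pairs of members were seen in single cells, beside 37.7 expected within libraries, a ratio of 6.39. When the expected number was taken within each cluster of each library it rose to 100.2 and the ratio fell to 2.41, so part of the excess lay between clusters. Klra1 and Klra9 were seen together in 50 cells (6.33 expected within libraries, 20.6 within clusters) and Klra1 and Klra7 in 46 cells (4.15 and 12.3). Klra7 and Klra9, which are neighbours in the genome, were seen together in 24 cells (1.64 and 7.54).

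Klra3 had ratios within clusters from 0.94 to 1.98 with Klra1, Klra5, Klra6, Klra7 and Klra9, a range that overlaps with pairs without it, such as Klra5 and Klra7 (1.72) and Klra6 and Klra7 (1.79). It was seen with Klra1 in 30 cells (9.91 expected within libraries, 17.1 within clusters), a ratio of 3.03 and 1.75, and with Klra5 in 3 cells (1.39 and 3.20, a ratio of 0.94 within clusters). Its near twin Klra9 was found with it in 14 cells (3.56 and 8.37). Within Gzma-like cells the ratio over all pairs was 1.92, and within iNKT1-like cells 5.36 from 42 pairs, which rests on few cells. These counts are a description of cells that share libraries and depth.

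**Figure D4:**
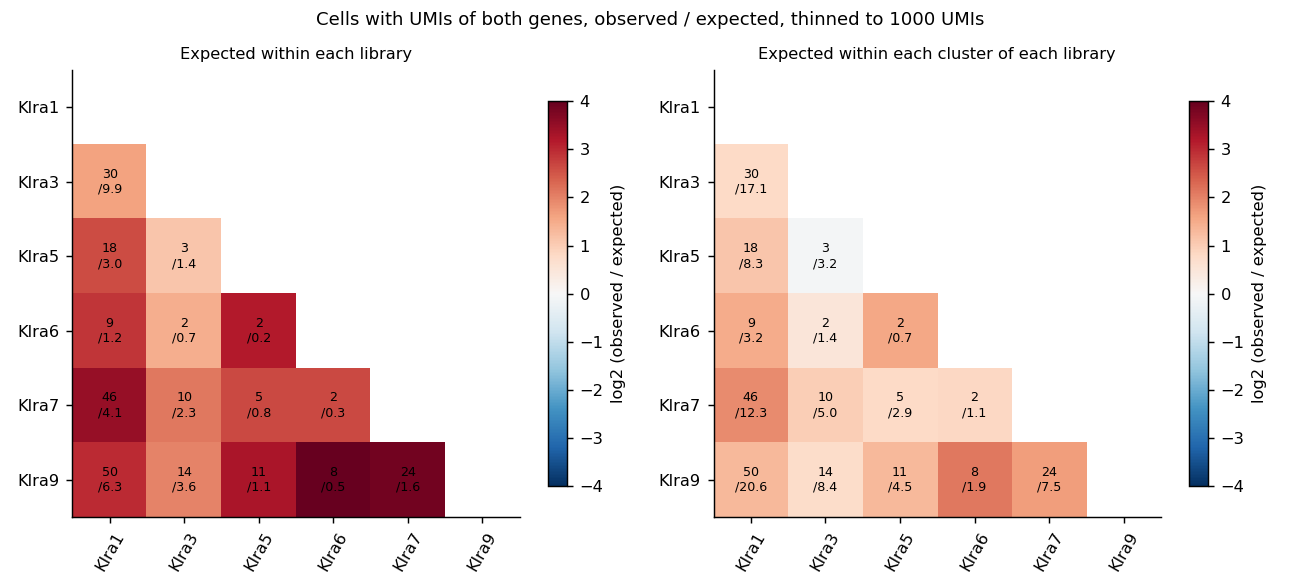
Number of cells with UMIs of both genes over the number expected, for each pair of 6 Ly49 genes (Klra8 left out for its 18 cells), with cells thinned to 1000 UMIs; the colour gives log2 of observed over expected. On the left the expected number comes from the shares within each library and on the right from those within each cluster of each library, where the ratios are lower, for example 3.73 in place of 11.1 for Klra1 and Klra7.

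To see what else Ly49-positive cells carry, cells with a UMI of any member (184, 239, 187, 201, 82 and 125 cells in liver, spleen and lymph node replicates in turn) were compared with those without, in the thinned cells, with the library as a block and the Klra genes left out. Of 7228 genes tested with edgeR, 88 (1.22%) differed, 57 (0.789%) higher and 31 (0.429%) lower in cells with a Ly49 UMI. The split turned with all genes kept, where 37 of 109 calls were higher, and with at least 2 Ly49 UMIs asked of a cell, where 35 of 95 were. By the naming rule, the genes that rose most were Fcer1g, Gm4208, Tyrobp, Klre1, Hhex, Klrc2, Klrd1, Gzmb, Atp1b1 and Klrk1, and those that fell most were Serpinb1a, Ccr9, Pxdc1, Bmyc and Lmo4. Each of these 15 had the same direction in 6 of 6 libraries, as the rule for naming them required. Gzma rose by 2.90 but in 5 of 6 libraries and was therefore not among them. Fcer1g, Tyrobp, Klre1 and Klrc2 are also markers by which Gzma-like cells were named, and without Gzma-like cells, a setting added after the data had been seen, 6 of the 14 named genes tested lost their call on the edgeR test: Tyrobp (0.97, adjusted p = 0.775), Hhex (1.55, adjusted p = 0.18), Klrd1 (1.51, adjusted p = 0.287), Atp1b1 (0.86, adjusted p = 0.852), Ccr9 (-0.95, adjusted p = 0.118) and Bmyc (-1.03, adjusted p = 0.295). Gm4208 did not pass the filter on low counts there.

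Of the signalling adaptors, Fcer1g had the highest fold of the named genes and Tyrobp followed Gm4208, a lincRNA (2.47). Fcer1g, which codes for the Fc receptor γ chain, ranged from 168 to 505 CPM in cells with a Ly49 UMI and from 9.74 to 75.9 CPM in cells without, so the 2 kinds of sums did not overlap. Its log2 fold change was 3.33 (SE 0.15, edgeR adjusted p = 2.4e-101). Tyrobp, which codes for DAP12, the partner of activating Ly49 receptors, averaged 89.9 ± 64 CPM with and 18.8 ± 14 CPM without (SD, n = 6) and rose by 2.27 (SE 0.26, adjusted p = 2.1e-15). Of the 10 tested genes of the Ly49 signalling list these 2 were called higher and the other 8 were not called, beside 0.789% of all genes called higher. The list median was 0.17, beside -0.02 for all genes tested.

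Of the other NK receptors 7 of 8 tested genes were higher and 0 lower, beside 0.789% of all genes higher, with a median of 1.36. The exception was Klrb1f (0.45, edgeR adjusted p = 0.786). Without Gzma-like cells 5 of 8 were higher (Cd160, Klre1, Klrk1, Klrc2 and Klrc1), beside 0.663% of all genes called in either direction, and the median was 1.02. Klre1 rose by 2.24 (SE 0.14, edgeR adjusted p = 5.6e-57), Klrc2 by 1.94 (SE 0.13, adjusted p = 1.1e-46) and Klrk1, the gene of the activating receptor NKG2D, by 1.39 (SE 0.07, adjusted p = 2.97e-78). Klrd1, the gene of CD94, averaged 1048 ± 262 CPM with and 305 ± 156 CPM without and rose by 1.78 (SE 0.225, adjusted p = 0.035), a call that was lost without liver replicate 2 (1.91, adjusted p = 0.101), lymph node replicate 1 (1.69, adjusted p = 0.067), spleen replicate 1 (1.72, adjusted p = 0.179) or spleen replicate 2 (1.85, adjusted p = 0.107) and at 1500 UMIs (1.82, adjusted p = 0.0626), at folds close to the one given. Klre1, Klrd1, Klrk1 and Klrc2 lie on chromosome 6 between 129577905 and 129660689, on the Klra5 side of the Ly49 genes. Several genes of this list are also class markers (Klrb1c, Klrd1 and Klrk1 of iNKT1-like, Klre1, Klrc1 and Klrc2 of Gzma-like cells), and values within classes are given below.

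**Figure D5:**
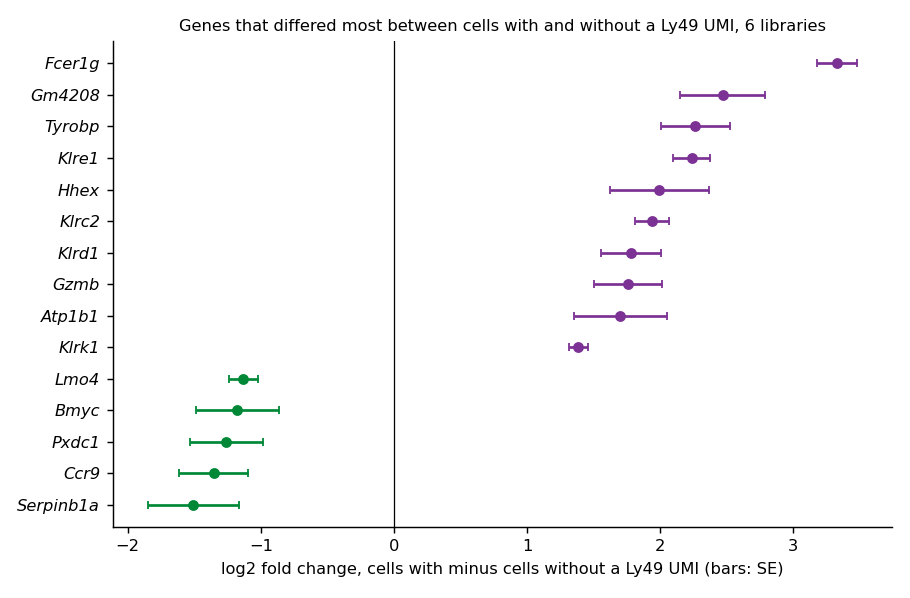
Log2 fold change between cells with and cells without a UMI of a Ly49 gene (points, with the SE as bars) for the 10 genes that rose most and the 5 that fell most by the naming rule, from edgeR over 6 libraries with the library as a block. Fcer1g is farthest to the right at 3.33 and Serpinb1a farthest to the left at -1.51.

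Of the cytotoxic effectors 4 of 8 tested genes were higher (beside 0.789% of all genes), namely Gzmb (1.76, edgeR adjusted p = 0.000198) and Gzma (2.90), which code for granzymes, Ctsw (0.35), which codes for cathepsin W, and the chemokine gene Xcl1 (0.41). Gzma is a marker of Gzma-like cells. Without Gzma-like cells Gzmb was called and the other 6 tested genes of the list were not, beside 0.663% of all genes called. Within iNKT1-like and within Gzma-like cells edgeR called 0 of 6 tested genes, beside 0.38% and 0.983% of all genes tested. The list medians there were 0.084 and 0.30, with 1 (Ccl5) and 2 (Gzmb and Ccl5) genes at an unadjusted edgeR p below 0.05. Gzmb was not among the genes tested in iNKT1-like cells. There it was called without lymph node replicate 2 (1.59), spleen replicate 1 (1.66) or spleen replicate 2 (1.61). It was not called there with all genes kept (1.23) or by DESeq2 (1.56). Over all cells, the call of Gzmb was lost without liver replicate 2 (2.11, edgeR adjusted p = 0.459) and without spleen replicate 2 (1.74, adjusted p = 0.132). It was also lost with an organ and replicate block in place of the library (1.80, edgeR adjusted p = 0.22). These folds were as large or nearly so. None of the 9 tested genes of MHC class I molecules and their assembly passed, nor did any of the 9 tested transcription factor genes. This stands beside 1.22% of all genes tested, so 0 of 9 does not set these lists apart. The list medians were 0.00 and -0.01. Hhex, a homeobox gene, rose by 1.99 (SE 0.37, adjusted p = 2.6e-05). Of the genes that fell, Serpinb1a and Pxdc1 are markers of iNKT17-like cells, Ccr9 codes for a chemokine receptor, and Lmo4 codes for a LIM domain protein that fell by 1.13 (SE 0.11, adjusted p = 1.9e-21) but missed the threshold without thinning (-0.60, adjusted p = 0.182). Bmyc (-1.18, adjusted p = 0.0181) lost its call in 7 of 12 alternatives, among them the fits without liver replicate 1 (adjusted p = 0.128) or 2 (adjusted p = 0.101), without lymph node replicate 2 (adjusted p = 0.0613) and without spleen replicate 2 (adjusted p = 0.09). Serpinb1a was lost without lymph node replicate 2 (-1.17, adjusted p = 0.328) and Pxdc1 without lymph node replicate 1 (-1.06, adjusted p = 0.107), and DESeq2 called neither (adjusted p = 0.652 and 0.511).

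The comparison was repeated within classes. Without Gzma-like cells, an added setting, 46 of 6942 genes (0.663%) were called. Among iNKT1-like cells 13 of 3420 genes (0.38%) differed, and 5 of 7 tested NK receptor genes were among the 11 higher ones (0.322%), namely Klre1 (1.66), Klrc2 (1.28), Klrd1 (1.23), Klrc1 (1.11) and Klrk1 (0.71). Of these calls DESeq2 lost Klre1 (adjusted p = 0.0592), Klrc2 (0.41) and Klrk1 (0.127), and thinning to 1500 UMIs lost Klrc2 (edgeR adjusted p = 0.378) and Klrd1 (0.306). Keeping all genes lost Klrk1 (edgeR adjusted p = 0.0762), and leaving out spleen replicate 1 lost Klrc2 (edgeR adjusted p = 0.105). Each of these log2 values was 0.446 or more. At 1500 UMIs Klre1 was not tested, and Klrc1 was not followed over the alternatives. The chemokine receptor genes Cxcr6 (-0.37) and Ccr2 (-0.58) were the 2 lower ones. With all genes kept, 9 of 106 calls were higher in that class, so the split depends on the filter on low counts. Among Gzma-like cells, an added analysis, 9 of 916 genes (0.983%) differed: Fcer1g rose by 1.77 (171 CPM without and 1012 CPM with), Cd7 by 1.09, Klre1 by 0.59 and Klrd1 by 0.56, with Crip1 and S100a6 also higher, while Cxcr6 (-0.74), Ly6a (-0.75) and Ccr2 (-0.73) fell. Genes that edgeR called in both classes and in the same direction were Klre1, Klrd1, Cd7, Crip1, S100a6, Cxcr6 and Ccr2, a set picked after its values had been seen.

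The sorted cells carried RNA of genes of the CD3 complex whether or not they had a Ly49 UMI. The T cell receptor chain genes Trac, Trbc1 and Trbc2 were not among the genes counted, so receptor chain RNA was not measured. The summed level of Cd3d, Cd3e, Cd3g and Cd247 was 4677 to 5966 CPM in cells with a Ly49 UMI and 4627 to 5895 CPM without. None of the 4 genes was called, beside 1.22% of all genes tested. Within the Gzma-like cluster the same sum was 4621 to 5984 CPM with and 4810 to 6555 CPM without. The NK cell markers Ncr1, Eomes, Klri2, Fcgr3, Itgam and Cma1 together gave 0 to 14 UMIs a library in the 82 to 239 cells with a Ly49 UMI. In the 2235 to 2617 cells without one they gave 5 to 23 UMIs a library. Of their 7 rows (Itgam has 2), 4 to 7 were at 0 in cells with a Ly49 UMI and 3 to 4 in cells without. As a level in cells with and without, this was 16.5 and 13.7 CPM in liver replicate 1 and 86.3 and 10.9 CPM in replicate 2. The spleen replicates had 22.5 and 8.28, then 13.9 and 6.16 CPM. Those of lymph node had 0 and 3.04, then 10.6 and 2.97 CPM. Within Gzma-like cells, liver had 15.5 and 58.9, then 147 and 43.4 CPM. There spleen had 62.8 and 58.0, then 0 and 16.3 CPM, and lymph node 0 and 0, then 0 and 137 CPM. The part of NK cells in the result was not tested.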

How the data were processed

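Single-cell 3′ libraries (10x Genomics, v2 chemistry) of iNKT cells were analysed, 2 each for liver, spleen and lymph node, with groups and replicate numbers from the sample titles. The authors aligned reads to mm10 and made the deposited counts of UMIs per gene and barcode with Cell Ranger 3.1.0 (Seurat is also named in the submitters' processing notes), and these counts carry no normalization. The deposited gene and barcode lists hold other values, namely identifiers and symbols. Barcodes with fewer than 300 or more than 4000 genes, or above 15% mitochondrial UMIs, were left out, as were 193 ribosomal protein, ribosomal RNA and haemoglobin genes from sums, which held 24.5% to 35.8% of the UMIs of a library. No doublet caller was run.

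Cells were clustered with leidenalg 0.10.2 (resolution 0.5, 3000 variable genes without any Klra gene, 20 principal components, 20 neighbours) and named from fixed markers, by thresholds set when the clusters had been seen. Sums per library were tested with edgeR 4.0.16 (robust quasi-likelihood, TMM, filterByExpr, Benjamini-Hochberg adjustment over all genes tested, threshold 0.05), with 1 estimate of the spread for all organs. Cells with and without a Ly49 UMI were thinned to 1000 UMIs and compared with the library as a block. Shares carry 95% exact Clopper-Pearson intervals, and a count of 0 allows up to 3 counts. Both tests were checked on simulated data: for liver against spleen over 10031 genes, 74% of genes changed 2-fold and 100% of those changed 4-fold were recovered with 2 false calls, and for cells with against without a Ly49 UMI over 7314 genes the shares were 93.8% and 100% with 12 false calls. Changed genes were drawn from those with at least 100 UMIs in all in the first check and at least 1000 in the second. The simulated spread was fixed at 1 value for all genes. Recovery of sparser genes, among them several named ones, was not measured.

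The members, the gene lists and the class markers were chosen with earlier results of these data known. Genes named from the comparison of cells with and without a Ly49 UMI were, of those called with the same direction in all 6 libraries and a mean of at least 20 CPM, the 10 that rose and the 5 that fell most. The genes most alike were the 5 with the highest Pearson r with the summed members. Genes called out beyond this rule were chosen after their values had been seen. Promoters and gene positions came from RefSeq (GRCm38.p6) and GENCODE vM21, in which all 7 members were matched. Alternatives were upper-quartile normalization, DESeq2 1.42.0, no filter on low counts, each library left out, a replicate block, equal depth, the left-out genes kept, all barcodes kept, the finer clustering at resolution 1.0, a marker gate, other depths of thinning (500 and 1500 UMIs and none), at least 2 Ly49 UMIs in place of 1, and the 2% of cells with the most UMIs left out. Settings without or within Gzma-like cells, and sums of at least 200000 UMIs, were added after the data had been seen.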

Additional observations from a re-analysis of the deposited data

Results flagged for a closer look

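The difference of Klra1 between liver and spleen was larger in Gzma-like than in iNKT1-like cells. In 1 edgeR fit of both classes over the 4 liver and spleen libraries, with the library as a block, the log2 fold change of liver against spleen was lower by 0.84 in Gzma-like cells (difference -0.84, SE 0.18, adjusted p = 0.0005), where 174 of 8861 genes (1.96%) were called. All of the other 6 members had a difference of the same sign and none passed, with adjusted p from 0.166 (Klra9, -0.90) to 0.928 (Klra6, -0.57).

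Klra10, which is no member and is listed as a Ly49 gene of the same cluster, had 6 UMIs in 6 of the 16532 cells, more than the 3 counts that a count of 0 allows. Some 110-base stretches of Klra3 also occur in Klra10 (3.1%).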

How the results depend on the processing

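Under the settings other than leaving out a library, 166 values that answer a comparison kept their direction and side of the threshold and 31 moved, 17 became weaker and 3 reversed. Of the other values, all of single genes, 148 kept theirs, 7 became stronger, 8 weaker and 6 reversed. The first group holds single genes too, and its 3 reversals were of Klra1, Klra3 and Klra9 in iNKT1-like cells. Where a value moved, the cause was not tested.

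DESeq2 called 1305, 2356 and 1024 genes in all cells (liver against spleen, liver against lymph node, spleen against lymph node) and 598, 798 and 314 in iNKT1-like cells, 39 genes in cells with against without a Ly49 UMI and 4 in iNKT1-like cells. Equal depth gave 805 genes for liver against spleen in iNKT1-like cells, and resolution 1.0 gave 666 and 270 against lymph node. Of the genes with against without a Ly49 UMI, 434 were called without thinning and 46 without Gzma-like cells, and in iNKT1-like cells 7 at 1500 UMIs, 38 without thinning, 106 with all genes kept (9 of them higher) and 6 with at least 2 Ly49 UMIs.

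Without Gzma-like cells, over all cells, Klra1 turned to -0.20 and -0.072 against lymph node (liver, spleen), Klra6 to 0.018 and Klra7 to -0.12 for liver against spleen, Klra5 for liver against spleen was 1.19, and Klra6 against lymph node was 1.73 and 1.71. For liver against spleen, equal depth turned Klra6 to 0.12. In iNKT1-like cells Klra1 for liver against spleen was -0.53 with DESeq2, -0.31 at equal depth and -0.45 with the marker gate, and Klra9 was -1.16 with DESeq2 (no adjusted p) and -1.19 at equal depth. For liver against lymph node Klra9 was -1.08 with upper-quartile factors, -1.12 with DESeq2, -1.08 with all genes kept, -1.28 at equal depth, -2.01 at resolution 1.0 and 0.66 with the gate. At resolution 1.0 Klra1 was -0.74 and 0.13 and Klra3 0.014 (Klra1 against lymph node for liver and spleen, Klra3 for liver), and with the gate Klra1 was -0.63 and -0.17.

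The share of cells with any member was 4.6%, 9.48% and 14.7% in liver and 4.98%, 10.7% and 11.1% in spleen (500 UMIs, 1500 UMIs, not thinned), and 2.68% and 6.16% in lymph node (500 UMIs, not thinned). The share of positive cells with at least 2 members was 7.73%, 17.7% and 21.1% in liver and 14.6% in spleen at 500 UMIs. Co-detection was 1.92 within libraries in Gzma-like cells and 5.36 within clusters in iNKT1-like cells.

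Leaving out each library in turn, the calls in all cells ranged from 1370 to 2412, 2439 to 4031 and 1039 to 1936, those in iNKT1-like cells from 871 to 2109, 919 to 1828 and 392 to 857, and those with against without a Ly49 UMI from 53 to 77 (lowest without liver replicate 2). The calls fell by over 1.5 times in all cells without liver replicate 1 (1372) or spleen replicate 2 (1370) for liver against spleen, and without lymph node replicate 2 for the other contrasts (2439 and 1039). In iNKT1-like cells they did so without liver replicate 1 (1043) or spleen replicate 2 (871), without lymph node replicate 2 (919), and, for spleen against lymph node, without spleen replicate 1 (530) or 2 (509) or lymph node replicate 1 (463) or 2 (392). Klra6 for spleen against lymph node ranged from 1.91 to 4.13 and Klra7 from 1.77 to 3.90. In iNKT1-like cells Klra1 for liver against spleen ranged from -0.86 to -0.23, Klra9 from -1.31 to -0.97, and Klra9 for liver against lymph node from -1.63 to -0.33. Over all cells the sign turned for Klra6 (-0.52 to 0.43) and Klra7 (-0.43 to 0.38) for liver against spleen and for Klra3 (-0.37 to 0.044) for liver against lymph node.

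Replicate numbers were not used as pairs in the main fits. Deviations of same-numbered libraries correlated weakly, at 0.085, 0.0826 and 0.0678, and these values do not settle whether the samples were paired. With a replicate block, 3033, 4138 and 2113 genes were called in all cells, 2362, 2029 and 900 in iNKT1-like cells, and 69 and 11 with against without a Ly49 UMI. In that fit Klra7 for liver against spleen was -0.018, Klra9 for liver against lymph node in iNKT1-like cells -1.09, and Klra1 (0.42 and 0.57) and Klra5 for spleen (1.16) passed against lymph node.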

Other observations

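Genes whose level was most like that of the summed members were sought over sums of each cluster and library with at least 30 cells. Over these 56 sums and 5859 genes the highest Pearson r of log2(CPM + 1) were those of Parvg (0.76), Mia3 (0.73), Chkb (0.69), Mcm6 (0.68) and Usp48 (0.67). These sums differ in depth, the Ly49 genes were at 0 in 4 of them, and each of the 5 genes was at 0 in 2 to 4 of them. What the smallest sums added to these values was not measured. Restricted, as a setting added after the data had been seen, to 34 sums of at least 200000 UMIs, where no sum was at 0, the list was Pglyrp1 (0.79), Fcer1g (0.77), Bin2 (0.75), Klrd1 (0.73) and Klhdc2 (0.71). None of the 5 genes of the first list was in the second. Pglyrp1 codes for a peptidoglycan recognition protein of cytotoxic granules. Sums of 1 library share depth and cells of like kind, so these correlations are a description.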
